A study of Mus musculus with 7 samples.

Results

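Krt8 and Krt18, the keratins of simple epithelia, and Krt5 and Krt14, the keratins of basal cells in stratified epithelia, were followed over 7 arrays of mouse fat. They were chosen by name, as genes whose probe carries exactly 1 gene symbol, and make up 4 of the 9294 genes of the table. Expression was measured on Affymetrix arrays from total RNA of whole fat depots of wild-type male mice of strain C57. There were 4 arrays of paracardial fat, the depot next to the heart, and 3 of intra-abdominal fat. Mice of both groups were untreated as far as the labels say, and no age is given. The samples of a depot are numbered as biological replicates, but no label ties a sample to an animal. The p-values therefore reflect only how these samples vary. The depots were dissected whole, so fewer cells of a type and less RNA per cell cannot be told apart in any value below.

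Keratins are the intermediate filament proteins of epithelial cells. They assemble only as partners of unlike type, a type II keratin with a type I keratin. Krt8 (type II) and Krt18 (type I) form the filaments of single-layered epithelia such as those of gut, liver ducts and glands, and of mesothelium, the lining of body cavities. Krt5 (type II) and Krt14 (type I) form those of the basal layer of skin and other stratified epithelia and of myoepithelial cells. The epithelium of the thymus, which lies above the heart, holds cells of either kind, with Krt8 and Krt18 in its cortex and Krt5 and Krt14 mainly in its medulla. Adipocytes, the fat-storing cells, are not known for keratin filaments.

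The start regions of the 4 genes are shown because Krt8 and Krt18 are neighbours, while the values of the basal pair moved by unlike amounts. Values of Krt18 and of the more distant Krt5 both moved with those of Krt8. Each line gives 250 bases before and 30 after the RefSeq start, 5′ to 3′ on the gene's own strand. Capitals mark every CG dinucleotide and, in Krt8, a stretch with TATAAA.
Krt8: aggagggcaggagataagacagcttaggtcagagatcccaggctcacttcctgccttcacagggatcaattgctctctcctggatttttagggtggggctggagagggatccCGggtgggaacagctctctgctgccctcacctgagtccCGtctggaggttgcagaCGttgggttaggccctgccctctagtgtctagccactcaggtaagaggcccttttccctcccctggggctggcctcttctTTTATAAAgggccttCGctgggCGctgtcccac
Krt18: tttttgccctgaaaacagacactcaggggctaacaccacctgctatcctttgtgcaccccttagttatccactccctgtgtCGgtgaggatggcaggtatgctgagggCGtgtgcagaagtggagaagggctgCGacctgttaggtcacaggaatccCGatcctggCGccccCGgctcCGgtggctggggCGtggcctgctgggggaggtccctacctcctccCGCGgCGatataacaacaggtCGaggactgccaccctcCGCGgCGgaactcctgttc
Krt5: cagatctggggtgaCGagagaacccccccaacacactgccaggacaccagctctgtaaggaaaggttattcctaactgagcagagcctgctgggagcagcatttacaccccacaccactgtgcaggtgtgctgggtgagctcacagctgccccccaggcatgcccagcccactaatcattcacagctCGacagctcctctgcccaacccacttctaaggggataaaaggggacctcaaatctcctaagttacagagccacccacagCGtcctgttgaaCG
Krt14: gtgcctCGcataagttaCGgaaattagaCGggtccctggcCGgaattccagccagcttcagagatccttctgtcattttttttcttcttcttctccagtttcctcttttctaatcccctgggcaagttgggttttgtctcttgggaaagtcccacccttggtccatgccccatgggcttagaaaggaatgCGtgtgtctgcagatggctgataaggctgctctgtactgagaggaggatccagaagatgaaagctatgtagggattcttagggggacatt
The sequences come from RefSeq, build GRCm38.p6, in which all 4 genes were found by symbol. The sources used here do not give the build of the array annotation. The Krt8 window is chr15:102004313-102004592 on the minus strand, and that of Krt18 is chr15:102027966-102028245 on the plus strand. Their starts lie 23.9 kb apart and point away from each other, with 0 protein-coding genes between them. Krt5 (chr15:101712876-101713155, minus strand) lies on the same chromosome, with 10 protein-coding genes between it and Krt8, all 10 of them named as keratins. Krt14 (chr11:100206001-100206280, minus strand) lies on another chromosome. The start used for Krt14 lies inside the RefSeq span of the gene, so its line may not show the main start region of the gene. The Krt18 window holds 15 CG pairs, against 5 in Krt8, 4 in Krt5, 5 in Krt14 and a median of 6 over 32851 windows of the same length. Its G and C content was 61.4%, against 58.6% for Krt8, 56.4% for Krt5 and 48.9% for Krt14. Of 4 motifs searched on either strand, TATAAA was found in Krt8, where it spans bases -3 to 4 from the start with overlapping matches on both strands. TATAAA occurs in 13.1% of all windows. GGGCGG (the GC box), CCAAT and TGANTCA (the AP-1 site) were in none of the 4 windows, and occur in 34.7%, 36.1% and 7.46% of all windows. These matches describe letters only.

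The deposited values are on a log2 scale whose centring is not stated, and the highest value of an array was 19.81 to 19.93. The highest keratin value, 14.00 for Krt18, lay far below that ceiling. A ceiling of 19.93 was common to paracardial array 4 and intra-abdominal array 3, called the set of 2, and the remaining arrays are called the set of 5. The labels give no batch. Adipocyte markers set the arrays of a depot apart. Adiponectin (Adipoq), the defining adipocyte hormone, read 5.18, 5.53, 9.92 and 9.73 on paracardial arrays 1 to 4. It read 11.74, 12.71 and 13.45 on intra-abdominal arrays 1 to 3. Paracardial arrays 1 and 2 thus lay at the low end for the tissue their labels name, and results are also given without them. The limma test passed 9.16% of genes at an adjusted p of 0.05, with 6.25% called higher in paracardial fat (581 genes) and 2.91% called lower (270 genes). The median difference of all genes was 0.13. Another scaling changed that split, to 432 higher against 416 lower with quantile normalization applied again, and to 512 against 530 with cyclic loess.

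Krt8, Krt18 and Krt5 rose in paracardial fat, while Krt14 did not pass the threshold. Of the 4 members 3 were called higher and 0 lower, where 6.25% and 2.91% of all genes were (9.16% either way). Every paracardial array lay above every intra-abdominal array for all 4 genes, as for 18.0% of all genes, and for 8.78% of all genes every paracardial array lay below. The differences were 5.08 for Krt8, 6.06 for Krt18, 4.42 for Krt5 and 1.46 for Krt14 on the log2 scale. They ranked 28, 8, 52 and 1340 from the highest among the 9294 differences. Probes of different genes have no common scale, so a level of 1 keratin is not set against that of another.

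Krt8, the type II partner of the simple pair, read 11.73, 12.12, 11.28 and 12.08 on the paracardial arrays, given in the order 1 to 4 here and below. On the intra-abdominal arrays 1 to 3 it read 8.02, 6.66 and 5.48. The paracardial arrays lay close together, while the intra-abdominal arrays spread widely, with array 1 highest and array 3 lowest. The lowest paracardial value was still 3.26 above the highest intra-abdominal value. The means were 11.80 ± 0.39 (SD, n = 4) and 6.72 ± 1.27 (SD, n = 3). Krt8 was higher by 5.08 (standard error 0.59, 95% confidence interval 3.68 to 6.48), at a limma adjusted p of 0.0090. A two-sided exact permutation test on the size of the mean difference gave p = 0.0286, which is the lowest p this design can reach. Krt8 passed in all 7 fits that left out 1 array, with adjusted p from 0.0066 to 0.044. Without paracardial arrays 1 and 2 together its difference was 4.96 and its adjusted p 0.103, a fit in which 1 gene of 9294 passed and 1751 had an unadjusted p under 0.05. Its adjusted p ran from 0.00081 to 0.103 over 21 alternatives. Taken within the set of 5 arrays, the difference was 4.37, and within the set of 2 it was 6.60. RefSeq lists a pseudogene copy, Krt8-ps, and whether the probe also reads it was not tested.

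Krt18, the type I partner of Krt8, read 12.90, 12.43, 12.58 and 14.00 on the paracardial arrays and 8.71, 6.79 and 5.25 on the intra-abdominal arrays. Paracardial array 4 was the highest, and the intra-abdominal arrays followed the same order as for Krt8. The means were 12.98 ± 0.71 (SD, n = 4) and 6.92 ± 1.73 (SD, n = 3). Krt18 had the largest difference of the 4, 6.06 with a standard error of 0.82 and an interval of 4.10 to 8.03, at a limma adjusted p of 0.012. The exact permutation test again gave p = 0.0286. Krt18 kept its call in 6 of the 7 fits with 1 array left out. Without intra-abdominal array 2 its adjusted p was 0.055, and without paracardial arrays 1 and 2 together it was 0.108 with a difference of 6.37 (0.0012 to 0.108 over 21 alternatives). Taken within the set of 5 arrays, the difference was 4.89, and within the set of 2 it was 8.75.

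Krt5, the type II keratin of basal cells, read 12.50, 11.98, 11.55 and 11.78 on the paracardial arrays and 9.45, 6.78 and 6.38 on the intra-abdominal arrays. Intra-abdominal array 1 was again the highest of its depot, 2.10 below the lowest paracardial array. The means were 11.95 ± 0.40 (SD, n = 4) and 7.54 ± 1.67 (SD, n = 3). Krt5 was higher by 4.42 with a standard error of 0.74 and an interval of 2.64 to 6.19, at a limma adjusted p of 0.019, with a permutation p of 0.0286 in the exact test. Its call was less firm than those of the simple pair, with 4 of the 7 fits that left out 1 array past the threshold. The adjusted p was 0.064 when paracardial array 1 was left out, 0.056 for array 2 and 0.083 for intra-abdominal array 2. Those fits called 196, 338 and 185 of all genes, against 851 with all arrays. The adjusted p of Krt5 was 0.148 without paracardial arrays 1 and 2 together and 0.072 within the set of 5 arrays (0.0047 to 0.148 over 21 alternatives). Taken within the set of 5 arrays, the difference was 3.90, and within the set of 2 it was 5.41.

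Krt14, the type I partner of Krt5, read 6.94, 7.38, 5.73 and 5.96 on the paracardial arrays and 4.86, 5.46 and 4.79 on the intra-abdominal arrays. The depots were separated by 0.28 only, and paracardial arrays 1 and 2 were higher than arrays 3 and 4. The mean of 8 further stratified keratins was also higher on those arrays (5.64 and 5.84) than on arrays 3 and 4 (4.95 and 4.89). Intra-abdominal array 2 was the highest of its depot, unlike for the other members, where array 1 was. The means were 6.50 ± 0.79 (SD, n = 4) and 5.04 ± 0.37 (SD, n = 3). The difference of 1.46 had a standard error of 0.46, an interval of 0.38 to 2.55 and a limma adjusted p of 0.101, with p = 0.0571 in the exact permutation test. Krt14 passed in 1 of 20 alternatives, the one with array weights (1.67, adjusted p = 0.023), and its adjusted p was 0.023 to 0.275 over all 20. Without paracardial arrays 1 and 2 the difference was 0.81. Taken within the set of 5 arrays, the difference was 1.52, and within the set of 2 it was 1.16. Krt14 was among the dimmer 50% of genes by its mean over all arrays, and no detection call was available for it. Krt14 is close in sequence to Krt17 and other type I keratins, and probe sequences were not used here, so its value may hold signal of a relative.

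**Figure D1:**
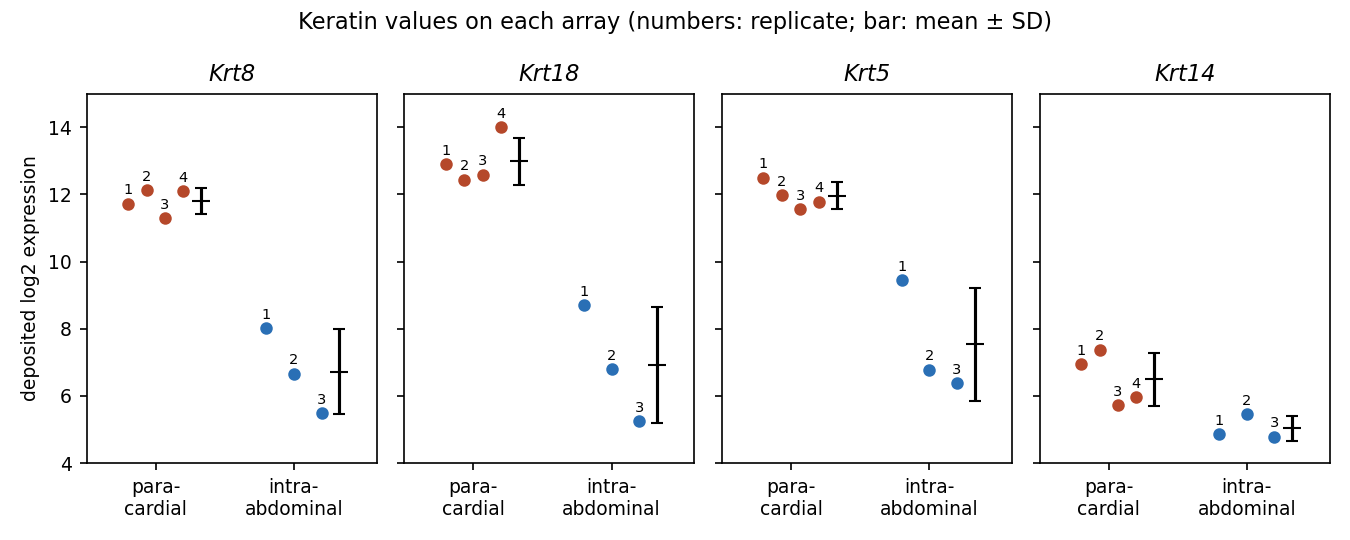
Deposited log2 values of Krt8, Krt18, Krt5 and Krt14 (vertical axis) on the 4 paracardial and 3 intra-abdominal arrays, numbered by replicate, with the mean and SD of each depot as a bar. Paracardial arrays lie above intra-abdominal arrays in every panel, by a gap of 3.26, 3.72, 2.10 and 0.28 between the nearest arrays.

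The pairs were compared through deviations, the value of a gene on an array minus the mean of the same gene over the intra-abdominal arrays. These means over the members are a description and were not tested. The simple pair deviated by 5.50, 5.45, 5.11 and 6.22 on paracardial arrays 1 to 4, with a mean of 5.57 ± 0.47 (SD, n = 4). The basal pair deviated by 3.43, 3.39, 2.36 and 2.58 on the same arrays, with a mean of 2.94 ± 0.55 (SD, n = 4). The simple pair exceeded the basal pair on each paracardial array, by 2.06, 2.06, 2.76 and 3.64, and by 0.68, 0.08 and -0.75 on intra-abdominal arrays 1 to 3. The mean excess was 2.63 ± 0.75 (SD, n = 4), against an SD of 0.72 over the 3 intra-abdominal arrays. Within the set of 5 arrays the excess was 1.92, within the set of 2 it was 4.39, and 20 alternatives gave 1.92 to 3.20.

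The excess of the simple pair lay in Krt14 more than in Krt5. Krt8 and Krt5, the type II members, could not be told apart by this measure. The deviation of Krt8 exceeded that of Krt5 by 0.04, 0.95, 0.55 and 1.11 on paracardial arrays 1 to 4, and by -0.62, 0.70 and -0.08 on the intra-abdominal arrays, so the depots overlapped. Partners differed from each other too. Krt18 deviated more than Krt8 by 0.98, 0.12, 1.10 and 1.72 on the paracardial arrays, which overlapped the -0.43 to 0.49 of the intra-abdominal arrays. Krt5 deviated more than Krt14 by 3.06, 2.10, 3.32 and 3.33, while the intra-abdominal arrays gave 2.09, -1.18 and -0.91. The lowest paracardial and the highest intra-abdominal value of that last comparison differed by less than 0.01. By this measure the basal pair was divided, with Krt5 near the simple pair and Krt14 below it. Krt14 was among the dimmer 50% of genes, and whether this made its deviation smaller was not tested.

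**Figure D2:**
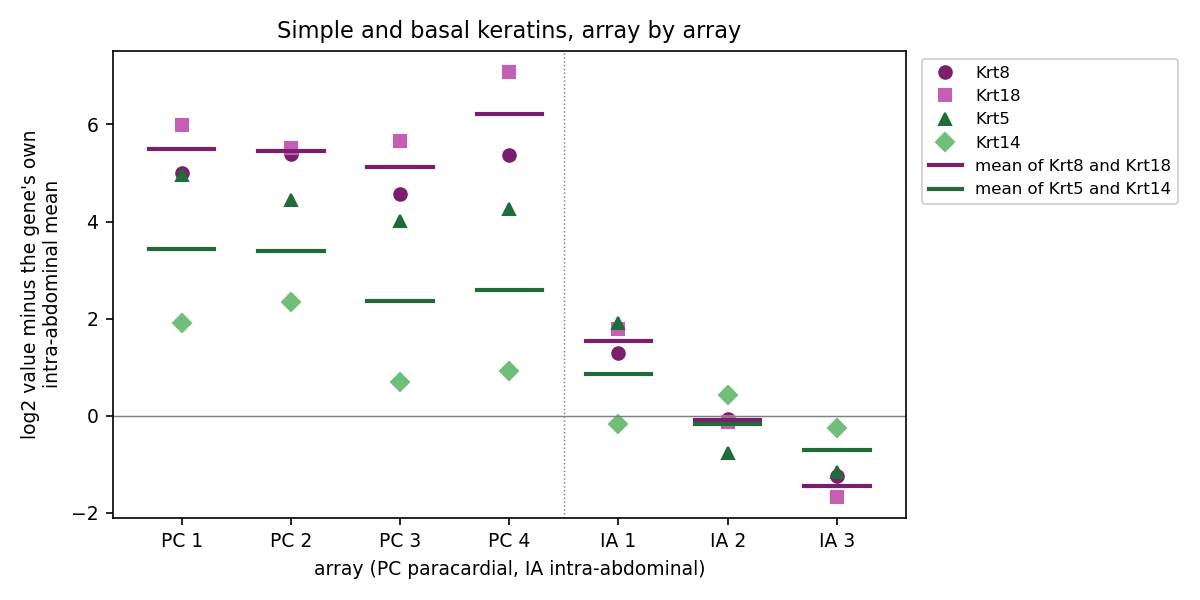
Deviation of each keratin from its own intra-abdominal mean in log2 units (vertical axis) on each array (PC paracardial, IA intra-abdominal), with short lines at the mean of Krt8 and Krt18 and at the mean of Krt5 and Krt14. On the paracardial arrays Krt8, Krt18 and Krt5 lie between 4.02 and 7.08, and Krt14 between 0.70 and 2.34.

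Within intra-abdominal fat the 3 keratins that rose shared an order of arrays. Array 1 deviated by 1.30 for Krt8, 1.79 for Krt18 and 1.92 for Krt5, and array 3 by -1.24, -1.67 and -1.16. Krt14 showed another order, with -0.18, 0.42 and -0.24 on arrays 1 to 3. The means of the thymocyte (9.82, 7.27 and 6.68), desmosome (6.43, 6.17 and 6.04), junction (5.35, 5.19 and 4.51) and medullary thymic epithelial lists (5.16, 4.78 and 4.60) ran in the order of the first 3. Those of the cortical thymic epithelial list (7.50, 6.81 and 6.85), the mesothelial list and the hair keratin list did not, nor did Krt19. Grhl2, an epithelial transcription factor gene (5.18, 5.17 and 4.72), and the further stratified keratins (4.82, 4.75 and 4.66) also ran in that order. The hemidesmosome, other intermediate filament and adipocyte means ran in reverse. How many of all genes share the order was not counted, so it singles out no list.

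Genes with the most similar profile were found by the root mean square difference of centred log2 values over the 7 arrays, where 0 means the same profile. Nearest to Krt8 were the linker histone gene H1f1 (0.40), Krt5 (0.58) and the desmosome gene Dsp (0.63), against 2.62 for the spread of Krt8 itself. Krt18 stood 5th of 5238 ranked genes from Krt8, at 0.69, and Krt14 stood 367th. Nearest to Krt18 were H1f1 (0.51), the mitotic kinesin Kif11 (0.60) and the histone copy H2bu1-ps (0.66), with Krt8 4th and Krt5 13th. Nearest to Krt5 were Hmgb1-ps1 (0.58), a pseudogene copy of a chromatin protein gene, and Krt8 (0.58). The histone gene H2ac10 came next, but its values are at the ceiling throughout paracardial fat (19.82 to 19.93), so its likeness to Krt5 and its place in the order are not known. Nearest to Krt14 were Plek2 (0.33), Ccdc58 (0.36) and the ribosomal pseudogene Rps16-ps3 (0.37), none of which passed the test. The other members were far from Krt14 by this measure, with Krt5 at 1.80 as the 4599th gene. The spread of Krt14 itself was 0.91. The measure is not scaled for the size of a difference, so these distances include the smaller depot difference of Krt14.

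Of 50 further keratins listed, 11 had a probe that could be used, and 1 of these was higher and 0 were lower, a share near the 9.16% of all genes called. Their median difference was 0.32, against 0.13 over all genes. The called gene was Krt17, a type I keratin of basal and stressed epithelium. Krt17 read 7.60, 7.41, 6.38 and 7.08 on the paracardial arrays and 5.48, 4.39 and 4.40 on the intra-abdominal arrays. It lay higher on every paracardial array, as 18.0% of all genes did. Krt17 was higher by 2.36 with a standard error of 0.41 and a limma adjusted p of 0.020. As with Krt5, 4 of the 7 fits that left out 1 array kept the call. The adjusted p was 0.064 when paracardial array 1 was left out, 0.060 for array 2 and 0.088 for intra-abdominal array 2 (0.0043 to 0.142 over 20 alternatives). Those fits called 196, 338 and 185 of all genes, against 851 with all arrays, so the loss of the call is not particular to Krt17 or Krt5.

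Krt19, a simple-epithelial type I keratin that can also partner Krt8, did not follow Krt8 and Krt18. It read 6.49, 6.48, 6.42 and 6.18 on the paracardial arrays and 6.20, 6.52 and 6.02 on the intra-abdominal arrays, and the depots overlapped. Its difference was 0.15 with a standard error of 0.20, an interval of -0.32 to 0.62 and a limma adjusted p of 0.707. The other 9 keratins lay between -0.14 (Krt79) and 0.71 (Krt90), and none passed. Of the 2 hair and inner root sheath keratins measured, Krt40 had the larger difference, 0.18 (limma adjusted p = 0.604).

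**Figure D3:**
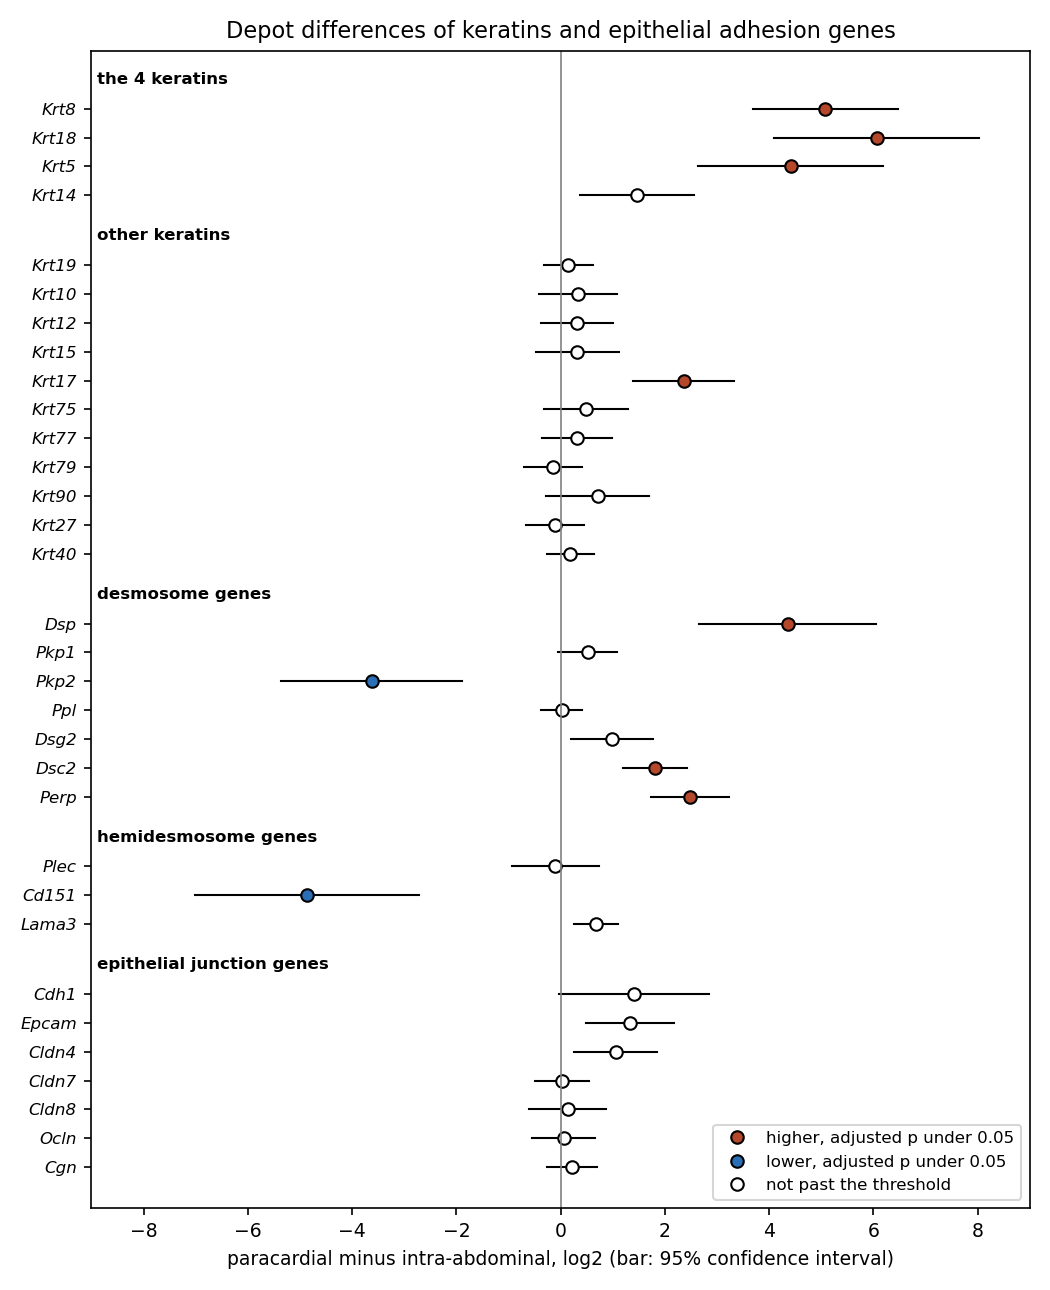
Paracardial minus intra-abdominal difference in log2 units with its 95% confidence interval (horizontal axis) for the 4 keratins, 11 other keratins and genes of desmosomes, hemidesmosomes and epithelial junctions; filled points passed an adjusted p of 0.05. Krt8, Krt18, Krt5, Krt17, Dsp, Dsc2 and Perp are filled on the right, and Pkp2 and Cd151 on the left.

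Desmosomes are the cell contacts that anchor keratin filaments. Of 7 measured desmosome genes 3 were higher, 1 was lower and 3 did not pass, where 6.25% and 2.91% of all genes were higher and lower. Their median difference was 0.99, against 0.13 over all genes. Desmoplakin (Dsp), the plaque protein that binds keratins, read 10.31, 10.33, 10.99 and 11.67 on the paracardial arrays and 8.11, 6.02 and 5.28 on the intra-abdominal arrays. These values run in the same order in intra-abdominal fat as Krt8. Dsp was higher by 4.36 with a standard error of 0.71 and a limma adjusted p of 0.018. Perp, a membrane protein of desmosomes, was higher by 2.49 (standard error 0.31, limma adjusted p = 0.011). Desmocollin 2 (Dsc2), named after its values were seen, was higher by 1.81 (standard error 0.25, limma adjusted p = 0.013). Perp passed whichever array was left out, while Dsp lost the threshold without paracardial array 1 (0.057), array 3 (0.052) or intra-abdominal array 2 (0.080), and Dsc2 without intra-abdominal array 2.

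Plakophilin 2 (Pkp2), a plaque protein also present outside stratified epithelium, ran the other way. It read 6.39, 6.31, 5.50 and 6.24 on the paracardial arrays and 8.21, 9.54 and 11.45 on the intra-abdominal arrays. Pkp2 fell by 3.62 on the log2 scale, with a standard error of 0.73 and a limma adjusted p of 0.029, and its call ended in 5 of the 7 fits that left out 1 array. Pkp2 was thus lower in the depot in which Krt8, Krt18 and Krt5 were higher, and its intra-abdominal arrays run in the order of the adipocyte markers (14.83, 15.20 and 16.15, the mean over 9 of 11 listed genes). Their part in the result was not tested.

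Genes of contacts to the basement membrane and between cells gave 1 call, a share near the 9.16% of all genes. Of 3 hemidesmosome genes, the anchors of Krt5 and Krt14 filaments, none was higher and 1 was lower, the widely expressed tetraspanin Cd151 (-4.86, standard error 0.90, limma adjusted p = 0.024), whose call held in 3 of the 7 fits that left out 1 array. None of 7 epithelial junction genes passed in limma (2 at an unadjusted p under 0.05), with a median difference of 0.22 against 0.13 over all genes. Among them E-cadherin (Cdh1) differed by 1.41 (standard error 0.60, limma adjusted p = 0.214) and its depots overlapped. The adhesion protein gene Epcam (1.33, standard error 0.35, limma adjusted p = 0.066) and the claudin gene Cldn4 (1.05, standard error 0.33, limma adjusted p = 0.105) lay higher on every paracardial array without passing. So did Lama3, a laminin chain gene of the hemidesmosome list (0.67, standard error 0.18, limma adjusted p = 0.063). Such a separation held for 2 of 7 junction genes and 1 of 3 hemidesmosome genes, beside 18.0% of all genes. Of 13 epithelial transcription and splicing factors only Grhl2 was measured, with a difference of 0.50 (limma adjusted p = 0.179). Vimentin (Vim), the intermediate filament protein of mesenchymal cells, read 9.86, 9.76, 12.86 and 13.91 on the paracardial arrays and 14.62, 15.45 and 15.92 on the intra-abdominal arrays. Its difference was -3.74 (standard error 1.12, limma adjusted p = 0.093). The desmosome and hemidesmosome lists held 0 calls without paracardial arrays 1 and 2 together, a check added after the data were seen. That fit passed 1 gene of 9294, so the counts say nothing about these lists in particular.

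Markers of other cell types were read on the same arrays. Of the mesothelial markers, whose cells carry Krt8 and Krt18, the few that were measured were not called. Of 10 listed genes 4 were measured, and 0 passed in limma (0 at an unadjusted p under 0.05), with a median difference of -0.24. Their mean was 5.49 to 6.26 on the paracardial arrays and 5.80 to 6.47 on the intra-abdominal arrays, and the ranges overlapped. Mesothelin (Msln), which defines mesothelium, read 4.74, 4.77, 4.88 and 4.93 in paracardial fat and 4.76, 5.29 and 5.33 in intra-abdominal fat. Upk1b had the largest difference of the list, -0.88 (limma adjusted p = 0.479). Upk1b read 6.68 to 8.44 on the paracardial and 7.38 to 9.26 on the intra-abdominal arrays, above the median of every array. The other measured genes of the list carry little signal. Nkain4 read exactly 5.60 on every intra-abdominal array, and Upk1b 7.38 on arrays 1 and 3 of that depot. Msln and Bnc1 lay below the array medians of 5.99 to 6.37 on every array. Whether mesothelium had a part in the keratin values was not tested. The log2 values have no zero, so absence of a marker cannot be read from them.

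Some thymic epithelial markers were higher in paracardial fat too. Of 6 measured of 8 cortical markers, 3 were higher and none was lower, where 6.25% and 2.91% of all genes were. The list mean was 7.84 to 9.84 on the paracardial arrays and 6.81 to 7.50 on the intra-abdominal arrays. Called higher were the thymoproteasome subunit gene Psmb11 (5.04 ± 1.11, difference ± SE, limma adjusted p = 0.040), the endocytic receptor gene Ly75 (4.12 ± 0.76, 0.024) and Tbata (3.07 ± 0.70, 0.045). With 1 array left out, Psmb11 and Ly75 each kept their call in 2 of 7 fits and Tbata in 1. Enpep of the same list lay lower on every paracardial array (-2.35, limma adjusted p = 0.094), as 8.78% of all genes did. Psmb11 read 10.90, 10.08, 11.59 and 14.40 on paracardial arrays 1 to 4. It was highest on array 4 and lowest on array 2, as Krt18 was. Krt8 and Krt14 were highest on array 2, and Krt5 on array 1. The transcription factor gene Foxn1, which defines thymic epithelium, read 5.30, 5.20, 5.70 and 6.80 in paracardial fat and 4.94, 4.81 and 4.36 in intra-abdominal fat and did not pass (1.05 ± 0.42, limma adjusted p = 0.190). Of 3 measured of 9 medullary markers none passed (3 at an unadjusted p under 0.05), with differences between 0.58 and 1.14, and Fezf2 was the largest at 1.14 (limma adjusted p = 0.069). Cldn4 is in this list and among the junction genes. The mean of the list was 5.55 to 6.17 on the paracardial arrays and 4.60 to 5.16 on the intra-abdominal arrays.

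Some thymocyte markers, of developing T cells, were higher as well. Of 7 measured of 12 markers, 3 were higher and none was lower, where 6.25% and 2.91% of all genes were. The list mean was 10.5 to 13.3 on the paracardial arrays and 6.68 to 9.82 on the intra-abdominal arrays. Called higher were Dntt (7.05), Rag2 (4.65) and Cd3d (4.09), which act in antigen receptor assembly and signalling, with limma adjusted p of 0.034, 0.021 and 0.050. With 1 array left out, Rag2 kept its call in 4 of 7 fits, and Dntt and Cd3d in 1 each. Cd1d1 of the same list lay lower on every paracardial array (-3.29, limma adjusted p = 0.058), as 8.78% of all genes did. Adipocyte markers ran against the keratins, with 6 of 9 measured called lower, where 2.91% of all genes were. Their mean was 6.07 to 10.6 on the paracardial arrays and 14.8 to 16.1 on the intra-abdominal arrays. Lep (-8.53), Plin4 (-8.13) and Cidec (-7.61), which encode leptin and lipid droplet proteins, led them. Lep and Plin4 passed whichever array was left out, and Cidec in 1 of those 7 fits. These marker levels differed between the same 2 depots, and their part in the result was not tested. Within paracardial fat the keratins differed in their order of arrays. The thymocyte mean was lowest on array 2 and highest on array 4, as Krt18 was. Krt8 and Krt14 were highest on array 2, and Krt5 on array 1. Without paracardial arrays 1 and 2 together, the thymocyte, cortical and adipocyte lists held 0 calls, as did the 4 keratins. That fit passed 1 gene of 9294, so these counts say nothing about the lists or the keratins in particular.

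**Figure D4:**
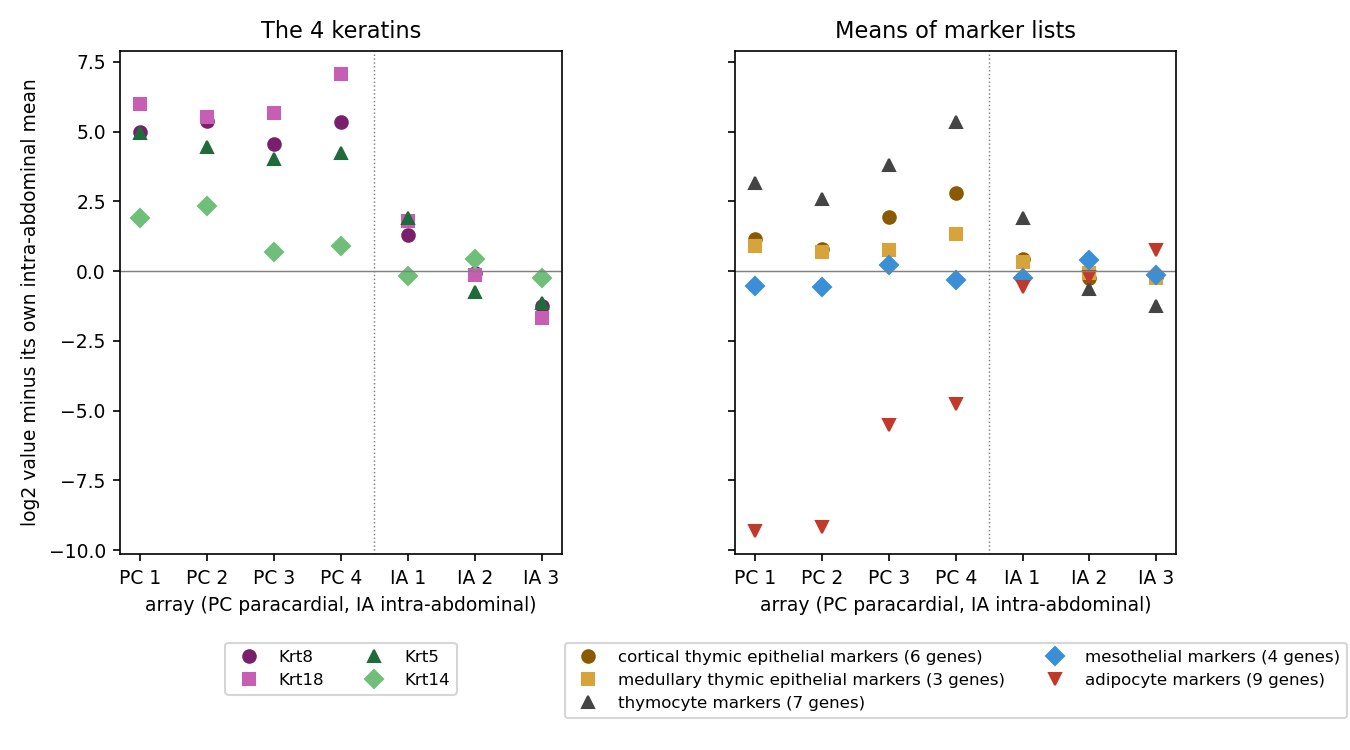
Log2 values minus their own intra-abdominal mean (vertical axis) on each array (PC paracardial, IA intra-abdominal), for the 4 keratins on the left and for the mean of each marker list on the right. Thymocyte and cortical thymic epithelial markers and the keratins lie above 0 on all 4 paracardial arrays, adipocyte markers below 0, and mesothelial markers near 0.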

How the data were processed

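Total RNA of 7 fat samples was hybridised to Affymetrix arrays. The values deposited by the authors are log2, 1 for each probe on each array. The submitters' processing notes name RMA and Affymetrix Expression Console. The sources used here give no version, background correction or build. The log2 unit is taken from the range of the values and the named method. Scanner files were not used here, so signal over background is unknown, and precision is limited by how many arrays there are.

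Of 11949 probes, 9352 had exactly 1 symbol in the platform annotation (522 several, 2075 none). Symbols were updated through Entrez identifiers in the RefSeq table (GRCm38.p6), and the probe with the highest mean was kept for each of 9294 genes. The 7 arrays were fitted in R 4.3.3 with lmFit and eBayes of limma 3.58.1, with depot as the only term and two-sided tests. Every difference is the paracardial mean minus the intra-abdominal mean. Benjamini-Hochberg adjustment ran across the 9294 genes with a threshold of 0.05. The exact permutation tests enumerated 35 splits. Other steps used Python 3.11.15 with scipy 1.17.1 for tests, pandas 2.3.3 and numpy 2.4.6 for tables and matplotlib 3.10.9 for plots. The fit was tested on simulated data.

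The members, the 13 gene lists and the alternatives were chosen with earlier results of these data known. Named were the members, the 3 largest differences past the threshold in each list (or the 1 largest where none passed) and the 3 nearest profiles per member, 33 genes of which 22 passed. Adipoq, Msln, Foxn1, Enpep, Cd1d1, Cldn4, Epcam, Lama3, Dsc2, Krt79 and Krt90 fall outside that rule and were named after their values were seen. Nearest profiles left out gene models, receptor and immunoglobulin segments and small RNAs. Alternatives were 2 filters on dim genes, 3 scalings, other variance models, array weights (gene-by-gene estimation), other probe rules, blocks, array subsets and each array left out. The list counts under them, except for keratins, were added after seeing the data.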

Additional observations from a re-analysis of the deposited data

Results flagged for a closer look

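Of 44 genes, the 33 named by the rule and 11 named after their values were seen, 3 had 1 paracardial array far from the other 3, by the gap to the nearest array as a share of the range, which passed Dixon's 95% limit for 4 arrays. Chance flags about 1 in 20 genes. Pkp2 read 5.50 on paracardial array 3 against 6.24 to 6.39 on the others, a share of 0.833. The mesothelial marker Upk1b read 8.44 on the same array against 6.68 to 6.71, a share of 0.981. Hmgb1-ps1, the gene nearest to Krt5, read 15.40 on array 2 against 15.75 to 15.79, a share of 0.89. None of Krt8, Krt18, Krt5 and Krt14 had such an array.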

How the results depend on the processing

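The differences of Krt8, Krt18, Krt5 and Krt14 kept their sign in every alternative run, within 4.37 to 5.73 for Krt8, 4.89 to 6.96 for Krt18, 3.84 to 5.38 for Krt5 and 0.81 to 1.72 for Krt14. Leaving out 1 array gave 4.46 to 5.73, 5.23 to 6.96, 3.84 to 5.38 and 1.17 to 1.72. Without the dimmest 50% of genes Krt14 and Krt17 were not in the fit, and the keratin list held 0 calls in place of 1 because 1 of its 11 genes was left. With the replicate number as a block, Krt8 (4.99, adjusted p = 0.057), Krt18 (5.72, 0.061) and Krt5 (4.47, 0.061) no longer passed, and 0 genes did, with 2134 at an unadjusted p under 0.05 in limma. The labels do not say whether equal numbers mean the same animal. Same-numbered arrays gave correlations of 0.05, 0.05 and -0.50 between their deviations from the depot means. Arrays of unlike number gave -0.38 to 0.49, and so few correlations cannot decide whether samples were paired. Without paracardial arrays 1 and 2 together Krt8 (4.96), Krt18 (6.37) and Krt5 (4.13) did not pass, 1 gene did, and the keratin list held 0. Within the set of 5 arrays Krt5 (3.90) did not pass and the keratin list held 0. Array weights let Krt14 pass (1.67). Krt79, which did not pass (-0.14), turned positive with array weights (0.11) and within the set of 5 arrays (0.14), and was -0.25 to 0.049 with 1 array left out. The count of all genes, 851, was 2225 with array weights, 1654 with the array set as a block, 0 with the replicate block and 185 to 833 with 1 array left out, and the keratin list then held 0 to 1. Array medians centred moved the median difference of all genes from 0.13 to -0.0052. The cause of these changes was not tested.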

Other observations

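Of 9294 genes, 1769 (19.0%) had a value that was repeated exactly on another array, among them 3 of the 11 keratins beyond the 4 and 2 of the 4 mesothelial markers. None of Krt8, Krt18, Krt5 and Krt14 had such a value, and none of their probes shared all values with another probe.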
